A study of Mus musculus with 6 samples.

Results

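The genes described here are 10 genes that cells switch on in response to interferon gamma. They are the guanylate-binding proteins Gbp2, Gbp3, Gbp5 and Gbp6, the immunity-related GTPases Igtp, Irgm1, Irgm2 and Iigp1, the transcription factor Irf1 and the inhibitor Socs1. They were chosen by name and not by their values, although results of these arrays were known at the time. RNA of splenic B cells from 3 CD37KO and 3 WT mice was hybridised to Affymetrix mouse gene arrays, 1 array per mouse. CD37KO mice (genotype Cd37 -/-) lack the tetraspanin CD37, a membrane protein of mature B cells, and the WT mice were littermate controls. Both groups were on the C57BL/6J background and untreated, and the labels give an age of 3 months, whereas the methods describe spleens taken at an older age. Cells were enriched by removing CD43-positive splenocytes, and B220 staining was used to judge purity, so other spleen cells could remain. The deletion is not restricted to B cells, which limits these mice as a model of B cells alone.

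Of the 10 genes, 6 had a probe set that named them alone (Irf1, Gbp3, Gbp5, Irgm1, Iigp1 and Socs1), among 19935 genes tested. The other 4 (Gbp2, Gbp6, Igtp and Irgm2) were named only on probe sets that also named related genes, so their own levels could not be separated. Values are log2 expression levels after RMA, the authors' background correction and normalization, and a difference of 1 on this scale is a doubling. All differences are CD37KO minus WT. A level was taken as above background when it exceeded 5.77, the 95th percentile of the mean levels of 1015 olfactory receptor genes, and 9874 genes did so in all 6 arrays. Irf1, Gbp3, Gbp5 and Irgm1 were among them.

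Interferon gamma is released mainly by T cells and natural killer cells. Its receptor, built from IFNGR1 and IFNGR2, activates the kinases JAK1 and JAK2, and the signal acts on promoter elements called gamma activated sites (GAS). IRF1 is made early in this response and binds the interferon-stimulated response element (ISRE), an element also used by the type I interferons. GBPs and IRGs are GTPases that gather on the vacuoles of intracellular pathogens. Irgm1, Irgm2 and Igtp belong to the regulatory IRGs that hold effector IRGs such as Iigp1 inactive on the cell's own membranes. SOCS1 binds JAK kinases and ends the signal.

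The promoters of the genes are shown because the GAS and ISRE letters in them are what set interferon targets apart by sequence. RefSeq windows on GRCm38.p6, running from 250 bases before to 50 bases after the transcription start, were matched by symbol for 8 of the 10 genes, and Gbp6 and Iigp1 were not analysed here. For Gbp3 and Irf1, which had 2 windows each, the most upstream one was used. The letters searched were TTCNNNGAA for GAS, which reads the same on both strands, and GAAANNGAAA for ISRE on either strand. Each line below gives the 110 bases before the start, 5′ to 3′ in the direction of the gene, with GAS and ISRE matches in capitals. The positions are chr11:53769904-53770013 (+ strand) for Irf1, chr3:142620553-142620662 (+) for Gbp2, chr3:142559934-142560043 (+) for Gbp3, chr3:142496824-142496933 (+) for Gbp5, chr11:48871421-48871530 (- strand) for Irgm1, chr11:58214867-58214976 (+) for Irgm2, chr11:58199446-58199555 (+) for Igtp and chr16:10785537-10785646 (-) for Socs1.
Irf1: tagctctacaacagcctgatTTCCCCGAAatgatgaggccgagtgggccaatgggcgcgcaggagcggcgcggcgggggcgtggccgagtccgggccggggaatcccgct
Gbp2: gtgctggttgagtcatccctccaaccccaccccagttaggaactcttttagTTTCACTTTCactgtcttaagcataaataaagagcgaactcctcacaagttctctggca
Gbp3: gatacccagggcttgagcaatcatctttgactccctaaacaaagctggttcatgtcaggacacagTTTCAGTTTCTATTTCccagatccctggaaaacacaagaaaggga
Gbp5: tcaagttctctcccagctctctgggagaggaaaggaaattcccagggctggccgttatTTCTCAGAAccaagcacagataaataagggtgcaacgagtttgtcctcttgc
Irgm1: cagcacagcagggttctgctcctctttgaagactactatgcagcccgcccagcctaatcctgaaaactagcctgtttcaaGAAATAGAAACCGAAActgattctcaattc
Irgm2: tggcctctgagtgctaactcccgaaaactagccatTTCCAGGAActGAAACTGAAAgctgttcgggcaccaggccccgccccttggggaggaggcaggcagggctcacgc
Igtp: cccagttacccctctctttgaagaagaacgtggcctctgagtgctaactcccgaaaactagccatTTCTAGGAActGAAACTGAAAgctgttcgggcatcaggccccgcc
Socs1: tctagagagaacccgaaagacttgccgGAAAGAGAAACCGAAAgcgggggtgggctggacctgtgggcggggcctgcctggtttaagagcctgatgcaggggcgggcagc

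All 8 windows held at least 1 of the elements. ISRE letters were present in 7 of the 8, against 3.44% of all 32851 windows in the table, and GAS letters in 4 of the 8, against 8.3%. Both stood together in the windows of Gbp5, Igtp and Irgm2, which is the case in 0.454% of all windows. The Irf1 window held a GAS match at positions -90 to -82 and no ISRE match. In Gbp3, Irgm1 and Socs1 a pair of ISRE matches overlapped each other, whereas in Gbp5 the ISRE match lay farther upstream, at -165 to -156, with a further GAS match at -245 to -237. The windows of Igtp and Irgm2 resembled each other, with the GAS and ISRE matches 2 bases apart in both and an unbroken stretch of 61 identical bases nearby. Of 10 windows of other GBP and IRG genes, 7 held ISRE letters and 5 held both elements. A match describes the letters only and does not show that a factor bound there in these cells.

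**Figure D1:**
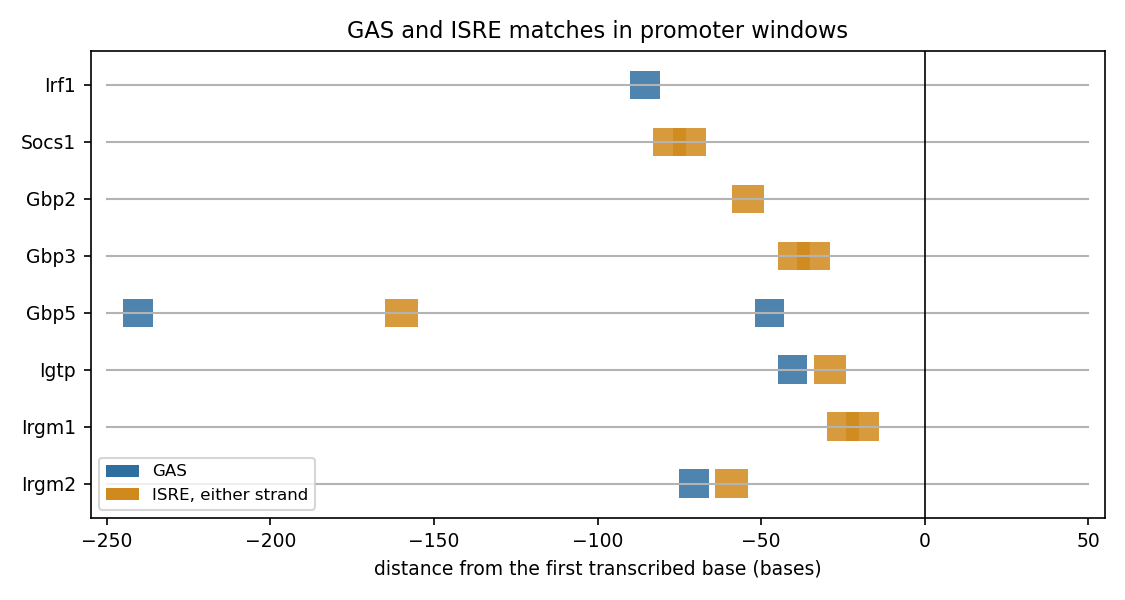
GAS matches (blue) and ISRE matches on either strand (orange) in the promoter windows of 8 genes, by distance in bases from the transcription start; grey lines span the window and darker orange marks overlapping ISRE matches. ISRE matches are in 7 windows and GAS matches in 4.

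Cd37 itself averaged 8.16 ± 0.011 in CD37KO and 11.97 ± 0.13 in WT arrays (SD, n = 3 each), a difference of -3.80 (adjusted p = 1.37e-07 from limma), in keeping with the labels. The 6 arrays correlated with each other at 0.993 to 0.997 over all genes. In all, 11 of 19935 genes (0.0552%) had an adjusted p under 0.05 in limma, and none of the 6 measured interferon gamma genes was among them. Without adjustment 2.96% of all genes were higher in CD37KO cells and 2.99% were lower, and these shares are the background for the counts that follow. The directions were not balanced among the 9874 genes above background, of which 504 were higher and 207 were lower at that threshold.

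Among the genes with a probe set of their own, only Irf1 and Gbp3 had groups without overlap. Both differences were small and neither passed the adjusted p. Gbp5, Irgm1 and Iigp1 were higher on average with overlapping groups, and Socs1 hardly differed. Irf1 (Entrez Gene 16362, on chromosome 11), the transcription factor at the head of the response, was at 9.37, 9.28 and 9.48 in the CD37KO arrays and at 9.06, 9.06 and 9.28 in the WT arrays. The groups did not overlap, although CD37KO replicate 2 and WT replicate 3 were level with each other to 2 decimals. The difference was 0.25 (standard error 0.086, 95% interval 0.051 to 0.44), which is 1.19-fold (1.04 to 1.36). It passed an unadjusted p (0.0196 from limma) and missed the adjusted one (adjusted p = 0.801 from limma). The exact two-sided permutation test gave p = 0.10, the smallest that 3 arrays against 3 allow. When 1 array was left out, the difference ran from 0.19 to 0.32 and its unadjusted p from 0.00532 to 0.0752, above 0.05 without WT replicate 1, WT replicate 2 or CD37KO replicate 3. A further Irf1 probe set was below background in every array and gave a difference of 0.02.

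Gbp3 (Entrez Gene 55932, chromosome 3), a GBP of the chromosome 3 cluster, was at 8.06, 8.06 and 8.20 in CD37KO and at 8.0, 7.83 and 7.89 in WT arrays. The groups did not overlap, and CD37KO replicate 3 was the highest and WT replicate 2 the lowest array. The difference was 0.20 (standard error 0.073, 95% interval 0.032 to 0.36), or 1.15-fold, with an unadjusted p of 0.0249 and an adjusted p of 0.801 from limma. Leaving out WT replicate 2, WT replicate 3 or CD37KO replicate 3 moved the unadjusted p above 0.05, and over all 6 such fits the difference was 0.15 to 0.24.

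Gbp5 (Entrez Gene 229898, chromosome 3), a GBP that promotes inflammasome assembly, was at 6.68, 6.55 and 6.89 in CD37KO and at 6.72, 6.40 and 6.55 in WT arrays. Here the groups overlapped, and WT replicate 1 exceeded every array but CD37KO replicate 3. The difference of 0.15 had a 95% interval of -0.10 to 0.40 and an unadjusted p of 0.199 from limma, which leaves room for no difference and for one larger than that of Gbp3. Single arrays weighed heavily, since the difference was 0.06 with CD37KO replicate 3 left out and 0.07 with WT replicate 2 left out, against 0.23 with WT replicate 1 or CD37KO replicate 2 left out.

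Irgm1 (Entrez Gene 15944, chromosome 11), the regulatory IRG that also takes part in autophagy, was at 8.94, 8.91 and 8.58 in CD37KO and at 8.66, 8.59 and 8.69 in WT arrays. CD37KO replicates 1 and 2 were above all WT arrays, while CD37KO replicate 3 was the lowest of all 6. The difference of 0.16 (standard error 0.10) had an unadjusted p of 0.140 from limma. Without CD37KO replicate 3 it was 0.28 with an unadjusted p of 0.00608, so that this array decided the value, and without CD37KO replicate 1 it was 0.10. For Irf1, Gbp3 and Gbp5, in contrast, CD37KO replicate 3 was the highest array.

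Iigp1 (Entrez Gene 60440, chromosome 18), the effector IRG that disrupts parasite vacuoles, was at 5.74, 5.55 and 5.93 in CD37KO and at 5.65, 5.52 and 5.30 in WT arrays. Only CD37KO replicate 3 was above background, so the difference of 0.25 (unadjusted p = 0.0673 from limma) was between levels at the detection limit, and with single arrays left out it lay between 0.15 and 0.34. Socs1 (Entrez Gene 12703, chromosome 16), the feedback inhibitor, was at 5.60, 5.72 and 5.73 in CD37KO and at 5.68, 5.63 and 5.68 in WT arrays. All 6 values were below background and its difference was 0.02 (95% interval -0.12 to 0.17), so a change in Socs1 was not detectable here.

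**Figure D2:**
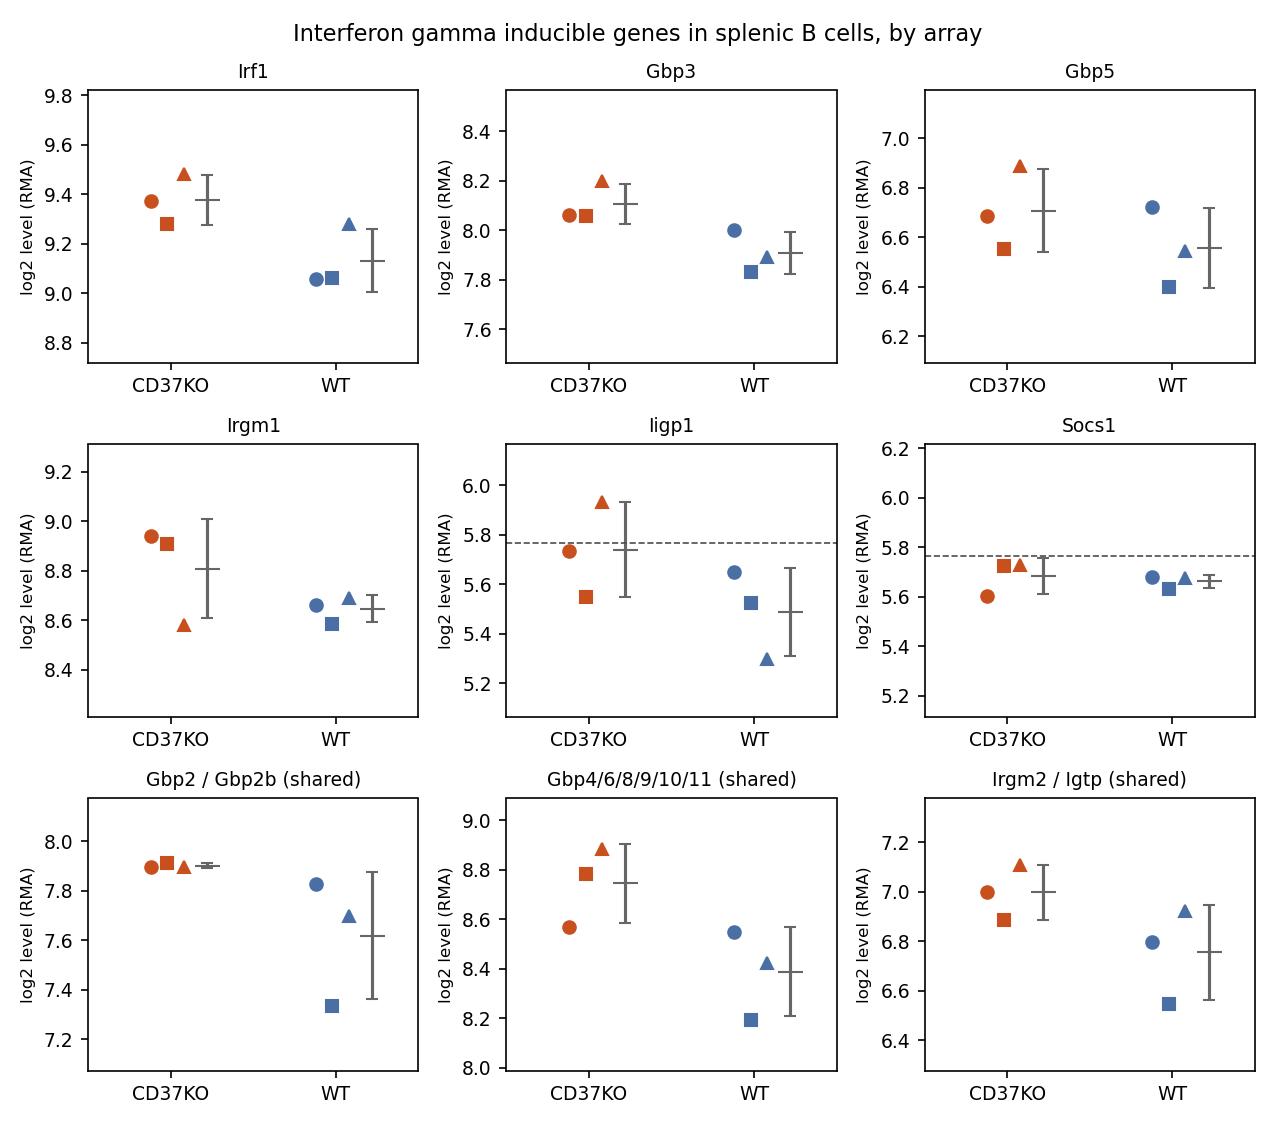
Log2 RMA level in each array for the 6 genes with a probe set of their own and for 3 shared probe sets, CD37KO (orange) left of WT (blue); circles, squares and triangles are replicates 1, 2 and 3, grey marks are the mean and SD (n = 3), and the dashed line in 2 panels is the background level of 5.77. Irf1, Gbp3 and the shared sets of Gbp2 with Gbp2b and of the 6 GBPs show no overlap, the others do.

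The remaining genes were seen through probe sets shared with close relatives, fitted together with all 35361 probe sets. The probe set shared by Gbp2 and Gbp2b was at 7.90, 7.91 and 7.89 in CD37KO and at 7.83, 7.33 and 7.70 in WT arrays. The CD37KO arrays were close together and just above the highest WT array, and much of the difference of 0.28 (unadjusted p = 0.0657 from limma) came from WT replicate 2, without which it was 0.14. The probe set of Gbp2b alone was below background in all 6 arrays (5.36 to 5.64 in CD37KO and 5.43 to 5.74 in WT arrays). The probe set naming Gbp4, Gbp6, Gbp8, Gbp9, Gbp10 and Gbp11, GBPs of the chromosome 5 cluster, was at 8.57, 8.78 and 8.88 in CD37KO and at 8.55, 8.19 and 8.42 in WT arrays. Its groups did not overlap, and the difference was 0.36 (standard error 0.12, unadjusted p = 0.0241 and adjusted p = 0.908 from limma). The unadjusted p was above 0.05, at most 0.0796, when WT replicate 2 or either of CD37KO replicates 2 and 3 was left out, and the difference was 0.26 without WT replicate 2. The probe set shared by Igtp and Irgm2, regulatory IRGs that are neighbours on chromosome 11, was at 7.0, 6.89 and 7.11 in CD37KO and at 6.80, 6.55 and 6.92 in WT arrays. CD37KO replicate 2 was below WT replicate 3, and the difference of 0.24 had an unadjusted p of 0.0740 from limma. It was 0.14 without WT replicate 2 and 0.33 without WT replicate 3.

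Outside the 10 genes, the largest differences among these shared probe sets were those of Tgtp1 and Tgtp2, effector IRGs also known as Irgb6, which have 2 probe sets. The brighter one was at 9.19, 9.34 and 9.12 in CD37KO and at 8.90, 8.62 and 8.93 in WT arrays, a difference of 0.40 (standard error 0.11, unadjusted p = 0.00842 and adjusted p = 0.908 from limma). The other gave a difference of 0.38 (unadjusted p = 0.0135), again with no overlap. Both stayed at an unadjusted p under 0.05 when any 1 array was left out, the highest being 0.0298 and 0.0458. The probe sets of Tgtp1 and Tgtp2, of the 9930111J21Rik genes and of Gbp2b alone were described after their values had been seen. By the same fit 2.35% of all probe sets were higher in CD37KO cells at an unadjusted p under 0.05, and 4.20% had all CD37KO arrays above all WT arrays. In contrast, 2 probe sets shared by 9930111J21Rik1 and 9930111J21Rik2, listed here with the other GBP and IRG genes, had overlapping groups. Their differences were 0.13 and 0.08.

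Counted together, 2 of the 6 measured genes (Irf1 and Gbp3) passed an unadjusted p under 0.05, both as higher in CD37KO cells. The same 2 had groups without overlap, as did 4.33% of all genes in that direction. All 6 differences were above 0, as were 41.8% of those of all genes, and their median was 0.18, against -0.02 for all genes. RMA compresses dim genes, so the same counts were taken over genes above background. Of these, 5.10% were higher at an unadjusted p under 0.05, 6.98% did not overlap with CD37KO higher, and 57.0% had a difference above 0, with a median of 0.02. Among the 4 genes above background the counts were 2, 2 and 4, with a median of 0.18. The mean level of those 4 genes was 8.27, 8.20 and 8.29 in the CD37KO arrays and 8.11, 7.97 and 8.10 in the WT arrays. The count of 2 did not withstand the loss of single arrays: it was 0 without WT replicate 2, and 1 without WT replicate 3 or CD37KO replicate 3.

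**Figure D3:**
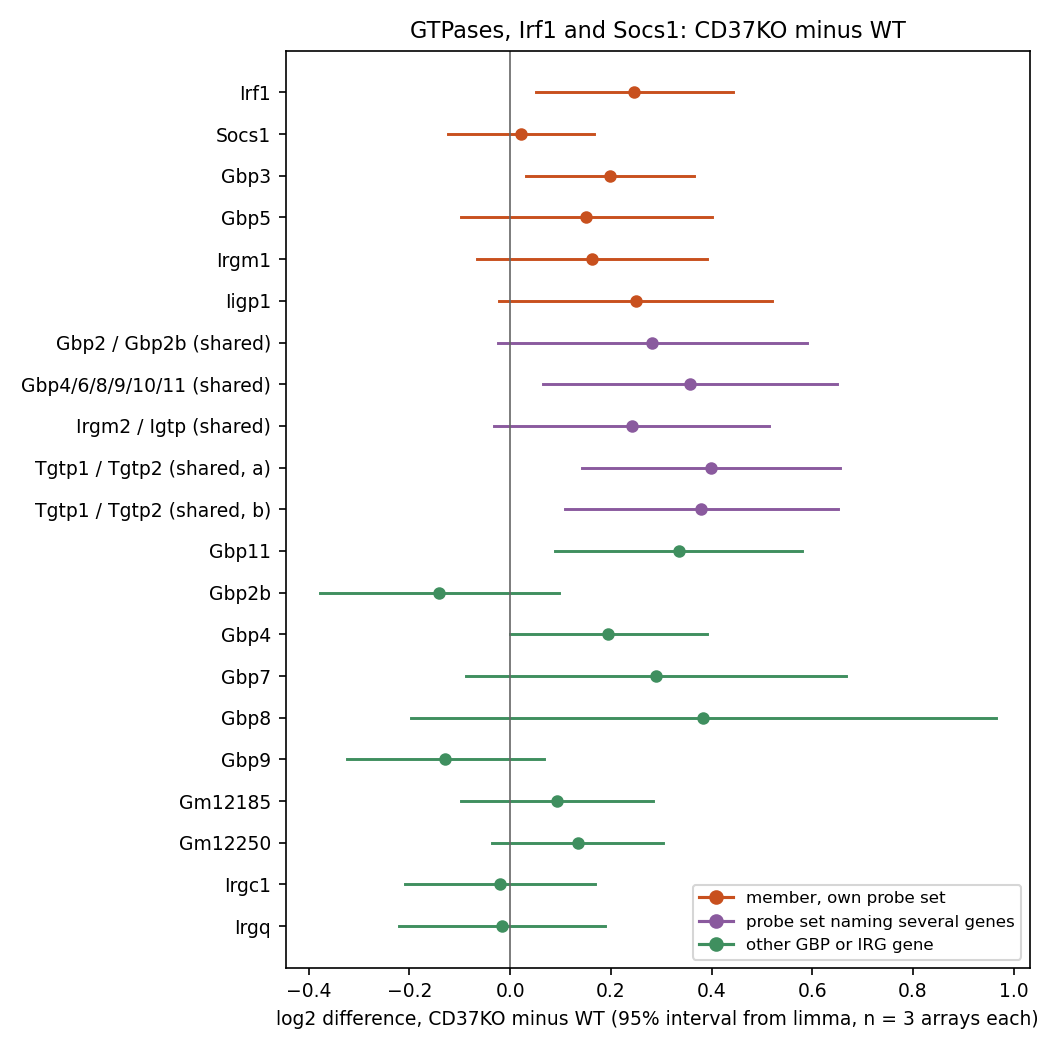
Log2 difference, CD37KO minus WT, with its 95% interval from limma (3 arrays each) for the genes with their own probe set (orange), probe sets naming several genes (purple) and other GBP and IRG genes (green). Most points lie between 0 and 0.4, and the intervals of Irf1, Gbp3, Gbp11, the 6-gene GBP set and both Tgtp1 and Tgtp2 sets lie above 0.

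The other GBP and IRG genes with a probe set of their own, 10 of 16 listed, showed a mixed picture. Only Gbp11 passed an unadjusted p under 0.05, none was lower, and the median difference was 0.11. Gbp11 was at 5.87, 5.92 and 6.18 in CD37KO and at 5.72, 5.78 and 5.48 in WT arrays, a difference of 0.33 (unadjusted p = 0.0134 from limma) close to background. Gbp4 was at 8.65, 8.53 and 8.77 in CD37KO and at 8.56, 8.35 and 8.46 in WT arrays, with a difference of 0.20 and an unadjusted p of 0.0509. Both are also named on the 6-gene probe set, which was higher in CD37KO cells. Gbp8 and Gbp9 are named on it as well, and Gbp9 was lower on average in CD37KO cells. Gbp7 had a difference of 0.29 with overlap, and it was lowest in WT replicate 2 (7.37, against 7.84 to 8.17 in the other 5 arrays), without which the difference was 0.10. Gm12250, an IRG also called Irgb10, had a difference of 0.13 (unadjusted p = 0.108), and Gbp9, chosen like Gbp8 after its values had been seen, had one of -0.13 (unadjusted p = 0.170). Gbp8 was at 7.98, 7.14 and 8.28 in CD37KO and at 7.62, 7.33 and 7.30 in WT arrays, so that CD37KO replicate 2 was the lowest array and the others of its group the highest. Members of the family on one gene cluster thus ran in different orders over the arrays.

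Upstream of these genes no difference passed the test. None of 12 measured genes of the interferon gamma receptor and its signalling passed an unadjusted p under 0.05 in either direction, and their median difference was 0.01. Ifng, the cytokine gene, was at 5.98, 6.30 and 6.13 in CD37KO and at 6.25, 5.94 and 6.19 in WT arrays, just above background and with overlapping groups. Ifngr2, the signalling chain of the receptor, came nearest, at 10.75, 10.77 and 10.59 in CD37KO and at 10.55, 10.43 and 10.60 in WT arrays. Its difference was 0.18 (standard error 0.077, unadjusted p = 0.0514 from limma), with CD37KO replicate 3 inside the WT range. Ifngr1, the ligand-binding chain, differed by 0.07, and the kinase genes Jak1 and Jak2 by -0.04 and 0.0048. Ptpn2, a phosphatase that dampens the pathway, differed by 0.05.

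Of 15 other IRF and SOCS genes measured, none was higher at an unadjusted p under 0.05 and only Irf3 was lower. Irf3, the factor that starts type I interferon production, was at 8.02, 8.03 and 7.92 in CD37KO and at 8.61, 8.40 and 8.52 in WT arrays. The difference was -0.52 (standard error 0.073, unadjusted p = 8.81e-05, adjusted p = 0.117 from limma), and the groups lay far apart. Irf3 lies 19 measured genes from Cd37 on chromosome 7, and the part of that location in its difference was not tested. Irf7, the amplifier of the type I response, differed by 0.14 with overlap, while Socs2 and Cish, further inhibitors of cytokine signalling, differed by 0.19 and 0.18, also with overlap.

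Other interferon targets were more often higher than lower in CD37KO cells, with no test against other genes. Of 31 other interferon gamma targets measured, 9 were higher and 1 was lower by an unadjusted p under 0.05. Their median difference was 0.14. The groups did not overlap for 9 with CD37KO higher and for 2 with CD37KO lower, against 864 and 1509 of all 19935 genes. Of the 25 targets above background, 9 were higher and 1 was lower at that p, against 504 and 207 of all 9874 such genes. No target passed the adjusted p. Nlrc5, the activator of MHC class I genes, was at 10.48, 10.49 and 10.53 in CD37KO and at 10.19, 10.03 and 10.18 in WT arrays. This difference of 0.37 (standard error 0.067, unadjusted p = 0.000501 and adjusted p = 0.357 from limma) came from the brightest of its 19 probe sets, and the mean of all 19 gave 0.20. Cxcl10, a chemokine for T cells, was at 7.17, 6.68 and 7.38 in CD37KO and at 6.43, 6.21 and 6.55 in WT arrays, with a difference of 0.68 (unadjusted p = 0.00342). Casp1, the inflammasome protease, differed by 0.34 (unadjusted p = 0.00569). The others that were higher were Casp4 and the antigen presentation genes Psmb8, Psmb9, Tap1, Tap2 and B2m, named after their values had been seen, with differences of 0.15 to 0.39. Cd274, which encodes the checkpoint ligand PD-L1, was lower, at 9.81, 9.73 and 9.67 in CD37KO and at 9.94, 9.97 and 9.99 in WT arrays (difference -0.23, unadjusted p = 0.00607). The count of 9 fell to 5 without WT replicate 2 and to 4 without CD37KO replicate 3.

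Among 40 type I interferon stimulated genes, 17 passed an unadjusted p under 0.05, all higher in CD37KO cells, against 2.96% of all genes. The groups of 12 did not overlap with CD37KO higher, as did those of 4.33% of all genes. Of the 37 above background, 15 were higher and 11 did not overlap, against 5.10% and 6.98% of all genes above background. The median difference of the 40 genes was 0.20, next to 0.18 for the 6 genes described here. Again none passed the adjusted p. Ddx60, Usp18, Rsad2 and Oas2, antiviral genes and a regulator of the type I receptor, had differences of 0.61, 0.50, 0.47 and 0.61, and their unadjusted p was 0.000563 to 0.00136. These 4 were picked from the list by their unadjusted p, so their differences are not typical of it. Both interferon types act through ISRE letters, and their parts in these values cannot be told apart by the lists.

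**Figure D4:**
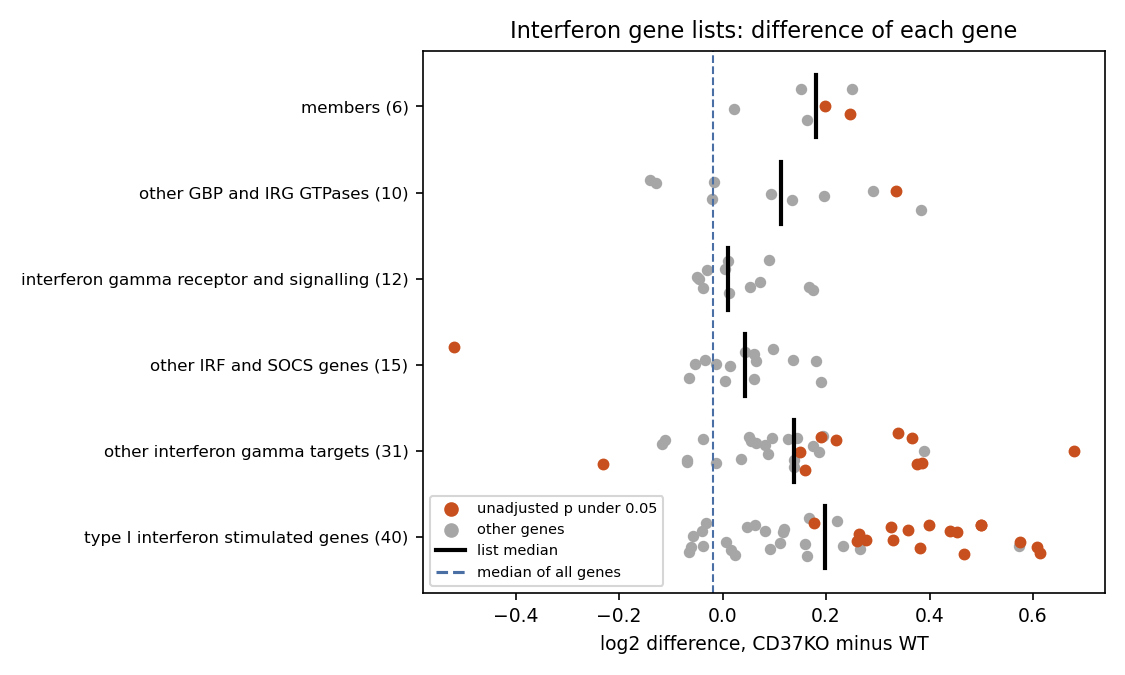
Log2 difference, CD37KO minus WT, of each measured gene in 6 lists (number of genes in brackets, the top row being the genes described here), with list medians as black bars and the median of all 19935 genes, -0.02, as a dashed line. Orange genes have an unadjusted p under 0.05 from limma: 2 of 6, 1 of 10, 0 of 12, 1 of 15, 10 of 31 and 17 of 40, from top to bottom.

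The arrays within a group were not alike, and the same arrays recurred at the extremes. CD37KO replicate 3 was the highest array for 3 of the 4 genes above background and for 4 of 7 other GBP and IRG genes above background. WT replicate 2 was the lowest for 2 of the 4, for 3 of those 7, for 13 of 25 other interferon gamma targets and for 22 of 37 type I genes. It was also the lowest for 7 of 13 other IRF and SOCS genes. Of 12 receptor and signalling genes it was the lowest for 5 and the highest for 5. The share over all genes was not counted, so these counts cannot be told from a shift of a whole array. Over the 6 arrays the levels of Gbp3 ran with those of Gbp5 (Pearson r = 0.876) and Irf1 (0.752), and Gbp5 ran with Irf1 (0.607), whereas Irgm1 was apart from all of them (-0.08 to 0.26). These correlations describe 6 arrays that include the genotype difference and carry no test. Among 4026 genes above background with at least as much spread, those whose deviations most resembled the mean deviation of Irf1, Gbp3, Gbp5 and Irgm1 were Selplg, Pip5k1c, Nudt9, Surf1 and Ehd2 (r = 0.985 to 0.990 over 6 arrays). None of these 5 was in the interferon lists.

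**Figure D5:**
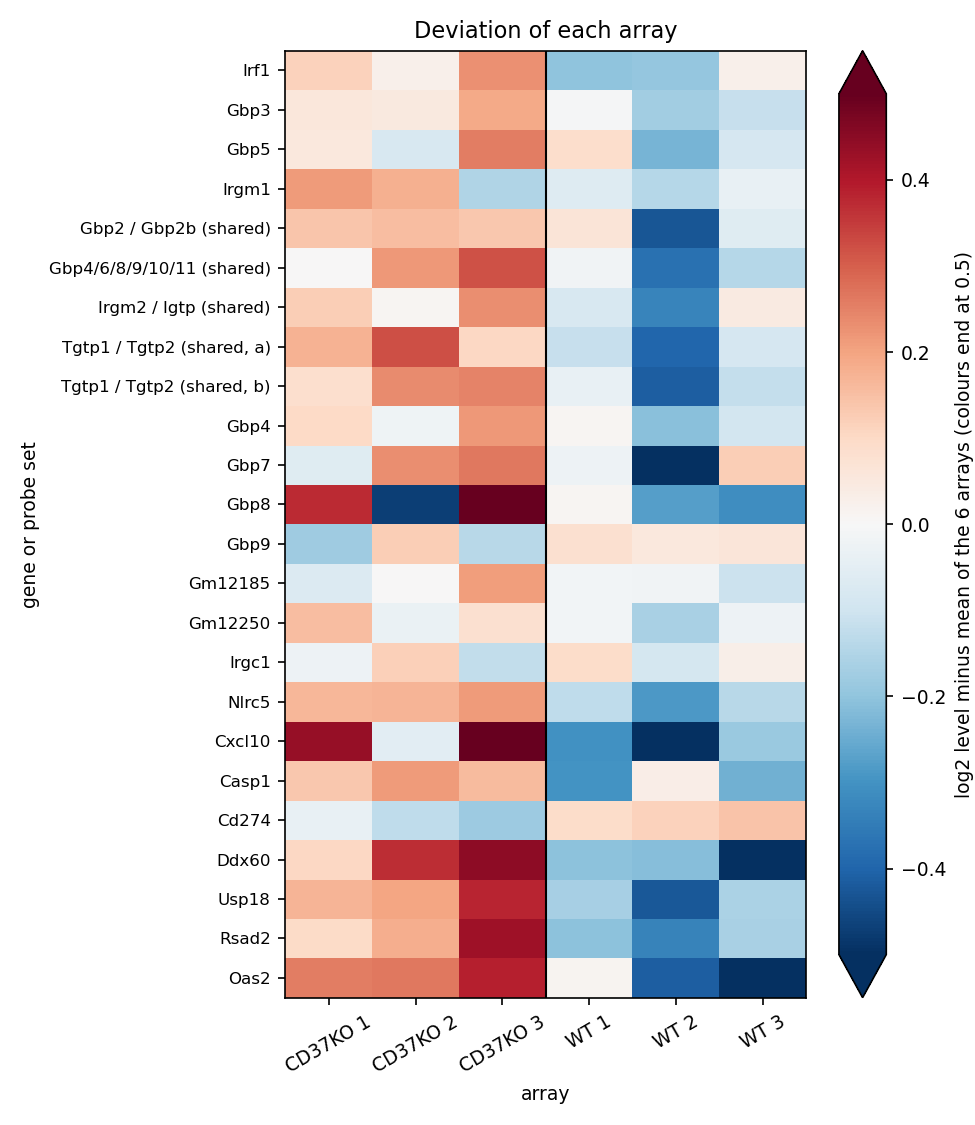
Deviation of each array from the 6-array mean (log2, red above and blue below, colours ending at 0.5) for GTPase genes and probe sets above background, Irf1 and the most changed interferon targets, with CD37KO arrays left of WT arrays. WT replicate 2 is the bluest column for the shared GBP and Tgtp sets, and Irgm1 is low in CD37KO replicate 3 where Irf1, Gbp3 and Gbp5 are high.

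Markers of cells other than B cells also differed with genotype. Mature B cell markers (9 genes) averaged 11.55 to 11.62 in CD37KO and 11.57 to 11.65 in WT arrays, as labelled. Neutrophil markers, in contrast, averaged 8.01, 6.61 and 7.31 in CD37KO and 6.29, 6.1 and 6.33 in WT arrays, and 10 of 12 had a higher level with an unadjusted p under 0.05 (median difference 0.90). Their level was highest in CD37KO replicate 1, as was that of Irgm1 (8.94). Irf1, Gbp3 and Gbp5 were highest in CD37KO replicate 3. The part of these cells in the interferon gamma genes was not tested, and in bulk samples more cells of a type and more RNA per cell cannot be told apart.

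Macrophage and monocyte markers (11 genes) averaged 9.73, 8.63 and 9.76 in CD37KO and 9.60, 8.86 and 8.99 in WT arrays, with Ccr2 below background. The 3 arrays with the most of them were CD37KO replicates 1 and 3 and WT replicate 1. These were also the 3 highest for Gbp5, Gbp4, Gbp8 and Gm12250, and for Iigp1 near background. This was not so for Irf1, Gbp3, Irgm1 and Socs1, nor for the remaining GBP and IRG genes with a probe set of their own. Of the cells that make interferon gamma, T cell markers averaged 5.67 to 5.69 in CD37KO and 5.71 to 5.79 in WT arrays. All CD37KO means were the lower ones, but Cd3d, Cd3g and Trat1 were below background and only 3 of 10 above it. Over those 3 the groups overlapped, at 6.34 to 6.49 in CD37KO and 6.33 to 6.52 in WT arrays. NK cell markers averaged 5.78 to 5.99 in CD37KO and 5.85 to 6.26 in WT arrays, with Klrb1c and Klrk1 below background and 4 of 10 above it. Averaged over all 10 markers, neither list was higher in CD37KO arrays. Cd8b1, Nkg7 and the dendritic cell marker Siglech were lower at an unadjusted p under 0.05 (differences of -0.18, -0.52 and -0.28). Lyz2 was the only 1 of the 11 macrophage and monocyte markers that passed, as higher (difference 0.58). In CD37KO arrays Lyz2 was at 9.66, 9.19 and 8.95, an order that differs from that of its list mean. Dendritic cell markers averaged 5.67 to 5.80 in CD37KO and 5.75 to 5.79 in WT arrays, with Xcr1, Clec9a, Batf3 and Clec10a below background, and erythroblast markers averaged 6.38 to 6.76 in CD37KO and 6.36 to 6.66 in WT arrays, with Klf1 below background. The part of any of these cells in the interferon gamma genes was not tested.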

How the data were processed

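RNA of CD43-negative splenic B cells from 3 CD37KO and 3 WT mice was measured on Affymetrix gene arrays, 1 per mouse. The values the authors deposited are log2 levels, 1 for each probe set and array. Per the submitters' processing notes they come from RMA and the build mm8, with the software not given in the sources used here. RMA compresses low signals, which understates differences of dim genes. The table held 35361 probe sets, of which 21780 named 1 gene, 1605 named several and 11976 were unnamed. Symbols were checked by Entrez Gene ID against GRCm38.p6 (91 IDs not found). For each gene the brightest probe set naming it alone was kept. CD37KO was compared with WT by two-sided moderated tests (limma 3.58.1 under R 4.3.3), with p-values adjusted after Benjamini and Hochberg over 19935 genes and a threshold of 0.05, after a check on simulated data. The number of arrays limits the precision.

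The 10 genes and the lists were chosen with earlier results of these data known. Named genes were the 10 genes, Cd37, receptor and signal genes, the 4 genes of each companion list with the smallest unadjusted p, and the 5 most alike over the arrays, and exceptions are marked. The alternatives changed the scaling (a second quantile normalization, median centring), the genes (probe sets averaged per gene, dim genes removed), the spread (a robust trend, ordinary least squares, weights for arrays), the samples (a block for the replicate number, each array left out) or the background percentile. The fit over all probe sets, also without each array, was added after seeing the data. Since mm8 differs from the build of the promoter table, coordinates are given only for RefSeq windows. The labels name separate mice and littermates, but not which mice shared a litter.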

Additional observations from a re-analysis of the deposited data

How the results depend on the processing

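No measured gene of the 10 passed an adjusted p under 0.05 in any of 15 alternatives, and none was lower at an unadjusted p under 0.05 in any of 14. The count higher at an unadjusted p under 0.05, 2 as reported, was 1 after another quantile normalization, with probe sets averaged per gene and with ordinary least squares, and 0 to 3 when 1 array was left out. The median difference, 0.18 as reported, stayed at 0.13 to 0.23, and no direction was reversed. Irf1 kept an unadjusted p under 0.05 in 9 of 14 alternatives and Gbp3 in 10 of 14, Irgm1 in 1 of 14, Iigp1 in 2 of 13, and Gbp5 and Socs1 in none. With the 90th and 99th percentiles as background, 5 and 3 genes were above it instead of 4.

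The count over all genes, 11 as reported, was 3 with ordinary least squares, 19 with array weights, 5 over all probe sets, and 4 to 14 when 1 array was left out. The labels do not say which mice shared a litter, so the replicate numbers were not taken as pairs. Deviations of same-numbered arrays correlated at r = 0.238, 0.00678 and -0.139 over all genes, and those of other pairings at -0.367 to 0.312. These values cannot decide on pairing, since the deviations of 3 arrays cancel out within each group. With the replicate number as a block, 4 genes were called in all, none of the 10 genes was called, 2 passed an unadjusted p under 0.05 as higher, and their median was 0.18. Ordinary least squares gave 5 higher interferon gamma targets and 10 higher type I genes, against 9 and 17 as reported, and the median of the interferon gamma targets was 0.04 with array weights. Other GBP and IRG genes with an unadjusted p under 0.05 numbered 0 to 4 in the higher direction. In the lower direction, where none was reported, they numbered 2 with array weights, 1 without WT replicate 2 and 1 without CD37KO replicate 2. Of the receptor and signalling genes, where none was reported, 1 was higher at that threshold after another quantile normalization, median centring or a robust trend. The count was also 1 without WT replicate 3 and without CD37KO replicate 3. The cause of these shifts was not tested. Iigp1 and Socs1 were at or under background, which limits what could be seen of them.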
